A study of Homo sapiens with 15 samples.

Results

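The synovial sarcoma cell line HSSYII was sequenced in 2 control states within 1 RNA-seq series, and the difference between these states is described here. The 6 control libraries, of 15 in all, were taken by their labels: 3 labelled HSSYII_DMSO and 3 labelled HSSYII_shRenilla. The other 9 libraries hold 3 each of dBRD9-A, a compound that sends the BAF subunit BRD9 for degradation, and of 2 hairpins against the SS18-SSX1 fusion transcript. The series asked what BRD9 and SS18-SSX1 maintain in these cells, and each control was the baseline of 1 of its 2 experiments.

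Both control groups carry the SS18-SSX1 fusion, had been passaged fewer than 12 times, and were grown in DMEM with 10% heat-inactivated serum and 1% penicillin and streptomycin. The paper's methods list Plasmocin in this medium as well. The DMSO cells received vehicle alone (0.0001% DMSO) for 6 hr. The shRenilla cells received a lentivirus that carries GFP and a hairpin directed at Renilla luciferase, a sea pansy gene that human cells do not have, at an MOI (infectious units per cell) of 1.0. They were harvested 96 hr after infection without drug selection, so each culture may hold uninfected cells. The methods also name Polybrene in the viral supernatants. Virus, hairpin, Polybrene, vehicle, hours from treatment to harvest and experiment differ together between the groups and cannot be told apart. Time since plating and cell density were not given in the sources used here. All 6 libraries come from 1 cell line. The sources used here do not say whether replicates were separate cultures. What the p-values weigh a difference against is library-to-library spread, and this may be technical.

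Lentiviral entry brings foreign RNA and DNA into a cell. Sensors of nucleic acid can answer by inducing interferon-stimulated genes, whose promoters often hold an interferon-stimulated response element (ISRE), and the free ends of incoming viral DNA can activate p53. Cells kept in culture for days also alter lipid synthesis, growth factor signalling and matrix as they become dense. A vehicle control and a hairpin control are therefore different baselines, although both are read as the untreated state of a line.

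Total counts over 1 transcript row per gene were 20469342 to 27027411 in the 6 libraries. Levels are given as CPM (counts divided by library size in units of 1e6, after TMM scaling), and 13668 genes passed the filter on low counts. The shRenilla libraries were more spread than the DMSO libraries, with a common coefficient of variation of 12.6% against 3.52%. The library labelled shRenilla replicate 1 stood apart from the others in its group (chi-square per degree of freedom of 36.6 and 27, against 9.73 for the other pair and 2.33 to 3.87 among DMSO pairs). Many results are given with and without it, but not every list count that changed without it. A count given without such a value may still rest on this library. No gene was targeted by either control. The fusion partners SS18 (0.22, log2) and SSX1 (0.37) and the degrader's target BRD9 (-0.08) were not called different between the groups. Synovial sarcoma markers were present: TLE1, a Groucho corepressor used in diagnosis, read 181, 195 and 189 CPM with DMSO and 184, 174 and 183 CPM with shRenilla. CD99, another such marker, was at 0 in all 6 libraries. Its gene lies in the pseudoautosomal region, which the reference holds on both X and Y, and what this does to its count was not tested. Some epithelial (KRT19, EPCAM), endothelial (CDH5, VWF, KDR) and leukocyte (TYROBP) markers, named after their values were seen, were also at 0. Other members of these lists were not. Of 32 keratin and epithelial junction genes 10 were at 0 in all 6 libraries. That list summed to 292 to 318.8 CPM with DMSO and 325.4 to 379.2 CPM with shRenilla. Of 12 endothelial genes 4 were at 0, and the list summed to 70.04 to 72.27 CPM and 42.04 to 56.75 CPM.

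To find the genes that separate the control states, the groups were compared by edgeR's quasi-likelihood test, with p adjusted by Benjamini-Hochberg over all genes tested. A call needed a fold above 1.5 and an adjusted p under 0.05. By this rule 3060 of 13668 genes (22.4%) differed, 1745 higher (12.8%) and 1315 lower (9.62%) with shRenilla. Every count of called list members below stands against these shares, and several lists lie near them. Beyond 4-fold there were 301 higher and 178 lower, and beyond 16-fold 56 and 27. At any fold 6428 genes (47%) passed the adjusted p, and for 7936 genes (58.1%) the groups did not overlap. The median log2 fold change over all genes tested was 0.01 (quartiles -0.27 and 0.31). In bulk RNA, more cells with a transcript and more transcript per cell cannot be told apart.

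The largest rises came from genes that were close to silent with DMSO. Genes named for the largest rises or falls were chosen among those with non-overlapping groups, so that gap is no added evidence. COL9A1, a chain of the cartilage collagen type IX (chr6:70925743-71012787, GRCh37), read 0.627, 0.86 and 0.529 CPM with DMSO and 77, 58.1 and 65.3 CPM with shRenilla. All 3 shRenilla libraries lay far above all 3 DMSO libraries (log2 fold change 6.61, SE 0.18, adjusted p = 1.42e-09, edgeR's quasi-likelihood test). SLC6A3, the dopamine transporter, went from 0.134, 0.129 and 0.193 to 16.8, 16.4 and 17.1 CPM, the largest fold among genes that averaged 5 CPM or more and had counts in both groups (log2 6.75). TBX3, a T-box repressor of limb and mammary development, read 0.493, 0.215 and 0.385 CPM with DMSO and 28.9, 32.4 and 29.3 CPM with shRenilla (log2 6.36, SE 0.19, adjusted p = 2.18e-09).

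Several other genes of this group act in development or signalling. NR5A2, an orphan nuclear receptor, rose by 6.21 and IRX1, an Iroquois homeobox factor, rose by 6.12 on the log2 scale. PDGFD, a ligand of the PDGF receptor beta, rose by 5.27, and LRAT, which esterifies retinol for storage, rose by 4.76. SULF1, which trims sulphate from heparan sulphate, rose by 4.52, from 0.496 to 11.5 CPM (group means). In each of these 5 genes the groups did not overlap, a condition by which the largest rises were chosen. RPL39L, a paralogue of a ribosomal protein gene, also rose (6.16) although it lies on chromosome arm 3q, where most genes read lower, as described with the chromosome arms.

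The largest falls took genes from moderate or high levels to traces. RNF182, a ubiquitin ligase (chr6:13924677-13980541, GRCh37), read 24.3, 23.2 and 22.5 CPM with DMSO and 0.151, 0.225 and 0.0971 CPM with shRenilla (log2 fold change -7.15, SE 0.19, adjusted p = 1.25e-09). COL14A1, a fibril-associated collagen and among the most abundant transcripts that fell, read 1650, 1562 and 1635 CPM with DMSO and 104, 124 and 119.5 CPM with shRenilla. Its highest shRenilla library lay far under its lowest DMSO library (log2 -3.8, SE 0.09, adjusted p = 9.70e-10). NELL2, a secreted neural glycoprotein, went from 226, 211 and 219.5 to 10.7, 11.6 and 10.3 CPM.

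Among the largest falls were cytochromes P450 that clear small molecules. CYP26A1, the retinoic acid hydroxylase that retinoic acid itself induces, and 33.2% of whose 75-base words occur elsewhere, read 61.8, 60.0 and 65.3 CPM with DMSO and 1.28, 1.89 and 1.41 CPM with shRenilla (log2 -5.36). CYP1B1, a target of the aryl hydrocarbon receptor, went from 165, 156 and 175 to 12.5, 12.2 and 10.9 CPM (log2 -3.79). The groups were fully apart for both, which was a condition for being named among the largest falls. CA2, a carbonic anhydrase, fell by 5.68 on the log2 scale and LRP5, a Wnt co-receptor, by 3.7. The zinc finger genes ZNF462 and ZNF536 fell by 5.89 and 5.46. These values are shown with others in the plot of gene levels by library.

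**Figure D1:**
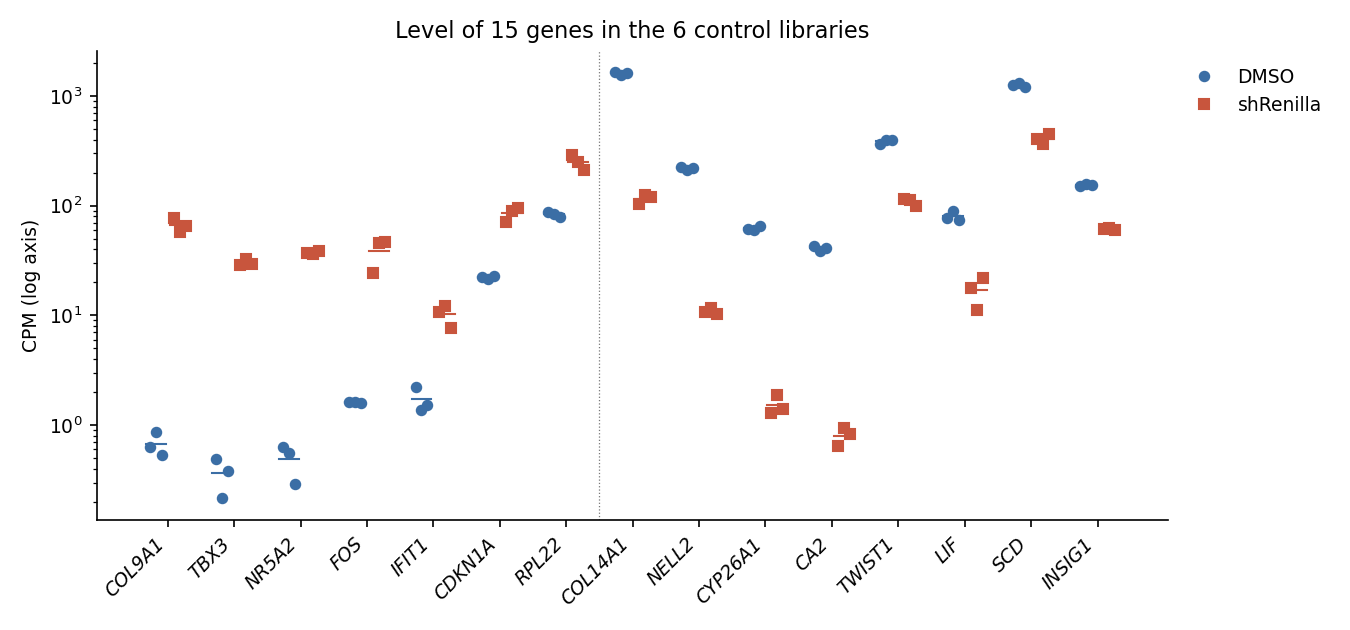
Level (CPM, log axis) of 15 genes in the 3 DMSO libraries (circles) and the 3 shRenilla libraries (squares), with a line at each group mean. Genes left of the dotted line rose and genes right of it fell with shRenilla, and for each of the 15 genes the groups do not overlap.

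Some genes had no count at all in 1 control state. FAP, fibroblast activation protein and a fibroblast surface protease, read 6.54, 5.89 and 5.58 CPM with DMSO and 0 in all 3 shRenilla libraries, at least 139-fold lower when 3 counts over the group stand for the 0. HOXB1, the anterior gene of the HOXB cluster, was likewise at 0 with shRenilla (at least 23.3-fold lower). In the other direction 5 genes at 0 with DMSO had the highest levels with shRenilla: MIR30A (at least 914-fold higher), SNHG8 (at least 83.3-fold), TMEM100 (at least 44-fold), ZXDA (at least 40.5-fold) and LCMT2 (at least 28.4-fold).

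The MIR30A row counts reads over the hairpin of miR-30a, a microRNA gene inside LINC00472 on chromosome 6. Its mature arms and hairpin are printed because this row separated libraries with and without virus completely (RefSeq, GRCh38.p14, minus strand), with bases 2 to 8, the seed, in capitals for the arms, and both arms in capitals for the hairpin.
hsa-miR-30a-5p, chr6:71403595-71403616: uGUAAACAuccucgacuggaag
hsa-miR-30a-3p, chr6:71403554-71403575: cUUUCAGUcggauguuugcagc
miR-30a hairpin, chr6:71403551-71403621: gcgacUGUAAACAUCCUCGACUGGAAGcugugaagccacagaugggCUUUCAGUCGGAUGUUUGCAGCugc
The raw counts of MIR30A were 0 in the 3 DMSO and also in the 3 dBRD9-A libraries. They were 729, 1371 and 764 with shRenilla, 405 to 639 with the first SS18-SSX1 hairpin and 96 to 214 with the second. MIR30C2, the other miR-30 gene of that locus, had 0 to 3 counts in any of the 15 libraries, and LINC00472 had 137 to 199 counts without virus and 241 to 362 with it. The hairpin of miR-30a is a common backbone of expressed shRNAs. The paper's reagents include SGEN, a vector from an RNAi core facility, and do not describe its hairpin backbone. Whether the MIR30A reads come from the virus was not tested.

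Other rows switched in the same all-or-none way. SNHG8, a host of small nucleolar RNA that shares 37.6% of its exon bases with another gene, had 0 counts in all 6 libraries without virus and 55 to 123 in the 9 with it. For ZXDA, an X-linked zinc finger gene, the 9 virus libraries had 37 to 66 counts against 0, while its near copy ZXDB had 399 to 486 counts without virus and 305 to 511 with it. LCMT2 had 25 to 46 counts with virus and 0 without. ADAL, measured beside LCMT2, had 19 to 48 counts with virus and 0 to 1 without. LOC283731, named after its counts were seen, had 14 to 48 with virus and 0 without. LOC101929532, an uncharacterised locus, ran the opposite way, with 14 to 30 counts in the 6 libraries without virus and 0 in the 9 with it. MIR3917, which shares exon bases with the stathmin gene STMN1, had 342 to 436 counts without virus and 6 to 37 with it, while STMN1 itself was not called (log2 0.17). These rows separate the 2 experiments and not only the 2 controls, and their source was not tested.

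Of 26 tested interferon-stimulated genes 11 rose with shRenilla and 1 fell (12.8% and 9.62% among all genes). The median log2 fold change of the list was 0.56 against 0.01 over all genes. IFIT1, which binds foreign RNA that lacks a cap methyl group, read 2.24, 1.38 and 1.54 CPM with DMSO and 10.7, 12.2 and 7.72 CPM with shRenilla. Its 3 shRenilla libraries were all above the DMSO libraries (log2 fold change 2.57, SE 0.22, adjusted p = 5.66e-06). XAF1, a pro-apoptotic interferon target of which 38.3% of exon bases overlap another gene, rose by 4.72 and IFIT2, which also binds RNA, by 2.13. DDX60, a helicase that assists RNA sensing, went from 6.0, 5.03 and 6.01 to 15.1, 16.5 and 14.4 CPM (log2 1.43, SE 0.12, adjusted p = 4.54e-06). The member that fell was LGALS3BP (log2 -0.71), named here after its value was seen.

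The absolute levels stayed low. Summed over the 40 genes of the list, the DMSO libraries held 334.1 to 341.9 CPM and the shRenilla libraries 396.3 to 421.5 CPM. ISG15, the ubiquitin-like modifier that marks an interferon response, read 6.63, 7.09 and 7.89 CPM with DMSO and 11, 7.17 and 7.24 CPM with shRenilla and was not called (log2 0.25). Of 12 tested sensors of viral nucleic acid, 2 rose and 1 fell (25% called, near the 22.4% of all genes). DHX58, which modulates RIG-I, rose by 0.86. APOBEC3C, a cytidine deaminase that mutates retroviral DNA, fell by 1.06. APOBEC3B, a related deaminase, was called higher (0.61), but not when any of 5 of the 6 libraries was left out (adjusted p from 0.0673 without DMSO replicate 2 to 0.157 without DMSO replicate 1). NF-kB targets and chemokines gave no rise among 9 tested (none at any fold by edgeR), and NFKB2 fell (-1.0). Of 8 tested genes of MHC class I presentation, HLA-C (0.80) and ERAP2 (0.68) rose. HLA-C lies on 6p, an arm whose genes were higher as a whole.

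Promoters of these genes were searched on both strands for TTTCNNTTTC, the core of the ISRE, from 250 bases before to 50 after the RefSeq start (GRCh38.p14). The core stood in 14 of the 20 tested list members with a promoter entry (70%) against 3.65% of 27305 promoters. It was in 6 of 9 members called higher and in 7 of 10 not called. Stretches of 3 members that rose (IFIT1, IFIT5, DDX60) and 1 that was not called (ISG15) are printed to show the element. Each stretch reads in the direction of its gene, so that of DDX60 is the genome minus strand, and each core is in capitals.
IFIT1, chr10:89392492-89392544, plus-strand gene: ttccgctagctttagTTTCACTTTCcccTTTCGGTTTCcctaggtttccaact
IFIT5, chr10:89414508-89414567, plus-strand gene: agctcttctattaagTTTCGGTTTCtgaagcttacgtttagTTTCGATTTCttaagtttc
DDX60, chr4:168318781-168318855, minus-strand gene: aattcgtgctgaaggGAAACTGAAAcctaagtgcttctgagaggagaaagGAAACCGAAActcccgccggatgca
ISG15, chr1:1013369-1013414, plus-strand gene: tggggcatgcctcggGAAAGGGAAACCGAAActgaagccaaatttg
IFIT1, IFIT5 and DDX60 each hold 2 separate cores in the stretch, and the 2 cores of ISG15 overlap. IFIT5 rose by 1.07 on the log2 scale. A match is a description of these letters and not a measured binding site.

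Of 25 tested p53 targets 8 rose and 1 fell, with a median of 0.45. CDKN1A, the p21 inhibitor of cyclin-dependent kinases and the classic p53 target (chr6:36644237-36655114, GRCh37), read 22.6, 21.4 and 22.9 CPM with DMSO and 71.1, 89.1 and 96 CPM with shRenilla. The groups did not overlap (log2 fold change 1.94, SE 0.12, adjusted p = 3.74e-07). CDKN1A lies on 6p, and its change was larger than the median of that arm (0.41). DDB2, a subunit of a sensor of ultraviolet damage, rose by 1.49, PHLDA3, an inhibitor of AKT, by 1.23, and BBC3, the pro-apoptotic protein PUMA, by 1.06. DDB2 lies in the 11p window of 40 to 50 Mb, whose 36 genes had a median of 0.84. Without shRenilla replicate 1, 7 targets rose.

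Few genes of proliferation were called. Of 32 S phase genes tested none rose and 2 fell, MCM2 (-0.73), a subunit of the replicative helicase, and TK1 (-0.59), thymidine kinase, with a median of -0.10. TK1 was near the fold threshold and was not called without DMSO replicate 2 (-0.58), DMSO replicate 3 (-0.57) or shRenilla replicate 2 (-0.50). Of 32 mitosis genes none rose and 2 fell, HMMR (-0.77) and ECT2 (-0.68), with a median of -0.03. By edgeR at any fold 3 S phase genes were higher and 7 lower, and 2 mitosis genes were higher and 7 lower. Over all genes 24.2% were higher and 22.8% lower by that rule, so the counts of lower members are near the background. Among 7 cyclin-dependent kinase inhibitors, CDKN1A and CDKN3, a phosphatase that acts on cyclin-dependent kinases, rose. CDKN3 went from 0.314, 0.301 and 0.289 to 8.62, 8.25 and 9.32 CPM (log2 4.83). CDKN1B, the p27 inhibitor, fell by 1.0, with 66.3, 62.8 and 62.8 CPM in the DMSO and 29.9, 34.4 and 31.5 CPM in the shRenilla libraries. CDKN2A fell by 0.83 and was not called without DMSO replicate 2 (-0.72). HIST1H4C, a replication-dependent histone, fell by 4.5, whereas HIST2H2BE (1.65), HIST1H2BD (1.28) and HIST1H2BK (1.17), which also make polyadenylated transcripts, rose. In total 5 of 12 tested histone genes rose and 1 fell, and leaving out a single library gave 1 to 3 that fell (3 without DMSO replicate 1, shRenilla replicate 1 or shRenilla replicate 3).

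Of 58 tested transcripts of cytosolic ribosomal proteins 37 rose and none fell, with a median of 0.70. By edgeR at any fold 56 rose and 1 fell, and in 56 all shRenilla libraries lay above all DMSO libraries (29.3% of all genes). RPL4, a large-subunit protein, had the largest gain in CPM of all genes called, from 1887, 1878 and 1865 CPM with DMSO to 3636, 3089 and 2874 CPM with shRenilla (log2 0.77, SE 0.088, adjusted p = 4.40e-05). Library 1 of shRenilla was the highest of the 3. RPL37 rose by 1.52, RPS24 by 1.28 and RPS16 by 0.79, and TPT1, a translationally controlled protein of the same regulatory class, rose by 0.74. Without shRenilla replicate 1, 33 of the list rose, and over the alternatives with the same fold 31 to 42 did.

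The factors that assemble ribosomes were measured beside their proteins. Of 27 tested MYC targets of ribosome biogenesis 1 rose, FBL (0.61), a nucleolar methyltransferase, and it was no longer called without shRenilla replicate 1 (0.35) or DMSO replicate 1 (0.57). Without shRenilla replicate 1 the list had no member that rose and 2 that fell. The median of that list was -0.16. Ribosomal protein transcripts are short and have many processed pseudogenes. Exon length was taken over all annotated transcripts of a gene joined, and shared sequence was counted in 75-base words. The fifth of genes with the shortest exons had a median of 0.11 and the fifth with the longest -0.09. Among 4317 other genes with joined exons under 4989 bases, the upper quartile of the ribosomal protein genes, 11.3% rose, with a median of 0.05. Joined exons are longer than a single transcript, so these genes are not matched to ribosomal protein transcripts in length. The part of transcript length was not tested. The 42 ribosomal protein genes that share under 20% of their 75-base words with other transcripts had a median of 0.70, and the 16 that share more also had 0.70. Of 33 tested genes of the mitochondrial respiratory chain 6 rose and 1 fell, and 3 rose without shRenilla replicate 1. The share called in this list was 21.2%, near the 22.4% of all genes.

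Of 24 tested genes of cholesterol synthesis none rose and 11 fell, with a median of -0.57, and by edgeR at any fold 1 rose and 18 fell. INSIG1, the sterol sensor that holds the SREBP factors in the endoplasmic reticulum (chr7:155089486-155101945, GRCh37), read 152, 159 and 155 CPM with DMSO and 61.7, 63 and 60.1 CPM with shRenilla. The groups were far apart and tight (log2 fold change -1.34, SE 0.074, adjusted p = 1.87e-07). DHCR7, the reductase that ends a branch of the pathway, fell by 1.61. EBP, a sterol isomerase, fell by 1.21, though 54% of its 75-base words occur elsewhere. Without shRenilla replicate 1, 13 members fell, and 11 to 13 did over the alternatives with the same fold.

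Fatty acid genes are driven by related factors. Of 13 genes of fatty acid synthesis and desaturation 7 fell and 1 rose, with a median of -0.84. SCD, the desaturase that makes oleate, read 1261, 1319 and 1201 CPM with DMSO and 409, 367 and 451 CPM with shRenilla. It was among the 5 largest losses in CPM of all genes called (log2 -1.62, SE 0.088, adjusted p = 1.80e-07). FADS2, a desaturase of polyunsaturated fatty acids, fell by 1.28 and LPIN1, a phosphatidate phosphatase, by 1.17. SREBF1, which encodes the factor that drives this gene set, fell by 1.12. The sterol response element TCACNCCAC, searched on both strands, was found in 1 of 18 cholesterol genes with a promoter entry (5.6%) against 1.15% of all promoters. That promoter is of SREBF2, which encodes the main regulator of sterol genes, and its stretch is printed with the element in capitals.
SREBF2, chr22:41832957-41832995 (GRCh38.p14), plus-strand gene: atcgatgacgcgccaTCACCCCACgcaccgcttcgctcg

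**Figure D2:**
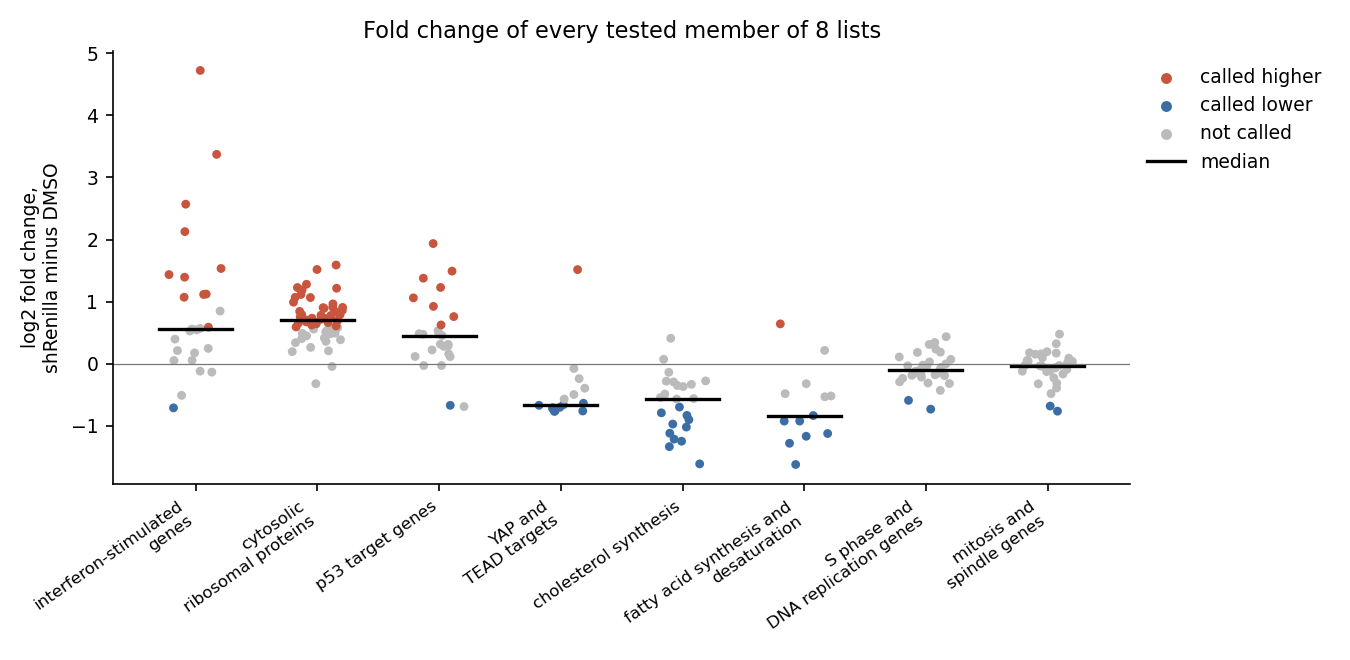
Log2 fold change (shRenilla minus DMSO) of every tested member of 8 gene lists, with called members in colour and a black line at each median. The medians of the ribosomal protein (0.70) and interferon-stimulated (0.56) lists lie above 0, those of the fatty acid (-0.84), YAP and TEAD (-0.66) and cholesterol (-0.57) lists below, and those of the S phase (-0.10) and mitosis (-0.03) lists close to 0.

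Immediate early genes moved in both directions. Of 33 tested, 7 rose and 5 fell. FOS, a partner of JUN in the AP-1 dimer, read 1.61, 1.63 and 1.59 CPM with DMSO and 24.4, 45.9 and 46.2 CPM with shRenilla, where library 1 was lower than the other 2. The groups did not overlap (log2 fold change 4.58, SE 0.27, adjusted p = 3.38e-07). FOSB rose by 5.31, EGR1, a zinc finger factor induced by serum, by 3.73 and PHLDA1, a pleckstrin domain protein, by 3.69. The MAPK phosphatases DUSP4 and DUSP5 rose by 3.32 and 1.37. Of 17 tested MAPK feedback targets 3 rose and 2 fell, LIF among the falls.

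Stress programmes were mixed. Of 29 tested genes of the integrated stress response 6 rose and 4 fell (34.5% called, against 22.4% of all genes tested). STC2, a secreted stanniocalcin, went from 3.45, 3.31 and 2.74 to 0.452, 0.315 and 0.146 CPM (log2 -3.31), and the amino acid carrier SLC7A5 fell by 1.17, while the carrier SLC1A4 rose by 1.43. SLC38A2, a carrier of neutral amino acids, was among the 5 largest losses in CPM (log2 -0.75). Of 29 tested genes of hypoxia and glycolysis 3 rose and 5 fell (27.6% called, near the 22.4% of all genes). ADM, the hypoxia-induced peptide adrenomedullin, fell by 2.16 and NDRG1 by 1.78, and the glucose carrier SLC2A3 rose by 1.06. Of 17 endoplasmic reticulum chaperones none rose and 2 fell (none and 5 at any fold by edgeR), HYOU1 (-0.63) and EDEM1 (-0.59). HYOU1 was not called without shRenilla replicate 2 (-0.55), and EDEM1 not without DMSO replicate 1 (-0.57) or shRenilla replicate 1 (-0.53), and with upper quartile scaling neither was.

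Targets of YAP and TEAD respond to cell contact and stiffness. Of 15 tested 9 fell and 1 rose, with a median of -0.66. TEAD1, the DNA-binding partner itself, fell by 0.77, AMOTL2, a junctional inhibitor of YAP and one of its targets, by 0.76 and CRIM1 by 0.76. NUAK2, a kinase, rose by 1.51. Without shRenilla replicate 1, 7 fell. With each gene set against the median of its own chromosome arm, the list's median was -0.53.

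TGF-beta is held in the matrix and signals through SMADs. Of 13 tested genes of this pathway 7 fell and 3 rose (median -0.59, or -0.44 against the arms). TGFBR3, the betaglycan co-receptor, rose from 6.32, 5.93 and 6.98 to 40.5, 48 and 47 CPM (log2 2.82), and PMEPA1, a feedback target, rose by 1.16. SKIL, a feedback repressor of SMADs on 3q, fell by 1.01. LTBP1, which holds latent TGF-beta in the matrix, fell by 1.87. Of 21 tested BMP genes 3 rose and 4 fell (33.3% called, against 22.4% of all genes). The ligand BMP2 (2.74) and the target MSX2 (3.58) rose, and the ligand GDF6 (-1.94) and the antagonist CHRD (-1.52) fell.

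In the Wnt list 4 of 20 rose and 6 fell. The ligand WNT6 rose by 2.26 and SP5, a direct target, by 4.69, while the ligands WNT9A and WNT4 fell by 2.69 and 2.03. Notch genes split evenly at 4 and 4 of 17: the ligands JAG1 (-0.94) and JAG2 (-0.84) and the targets HES5 (-1.4) and NRARP (-0.82) were those that fell. Without shRenilla replicate 1, 2 Notch genes rose, as was so without shRenilla replicate 3 or DMSO replicate 2, and 1 rose without DMSO replicate 1. Of 11 tested Hedgehog genes 2 rose and 2 fell (1 without shRenilla replicate 1). SHH, the ligand, rose by 2.06, and HHIP, a decoy that binds the ligand, fell by 1.37.

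Insulin-like growth factors act through receptors and are held by binding proteins. Of 14 tested genes 7 rose and 1 fell, with a median of 0.60. IGF2, a fetal growth ligand that synovial sarcomas often express, went from 174, 177 and 167 to 339, 325 and 368 CPM (log2 1.0), though 44.4% of its exon bases overlap another gene and it lies on 11p. On that arm the window of 0 to 10 Mb had a median of 0.018, and those of 30 to 40 Mb and 40 to 50 Mb had 0.38 and 0.84. The binding proteins IGFBP7 (1.21), IGFBP4 (1.2) and IGFBP3 (1.14) rose, and the receptor INSR fell (-1.23). Among 15 tested FGF and PDGF genes 4 rose and 4 fell, with PDGFD and FGF19 (1.13) higher and PDGFA (-0.90) lower.

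**Figure D3:**
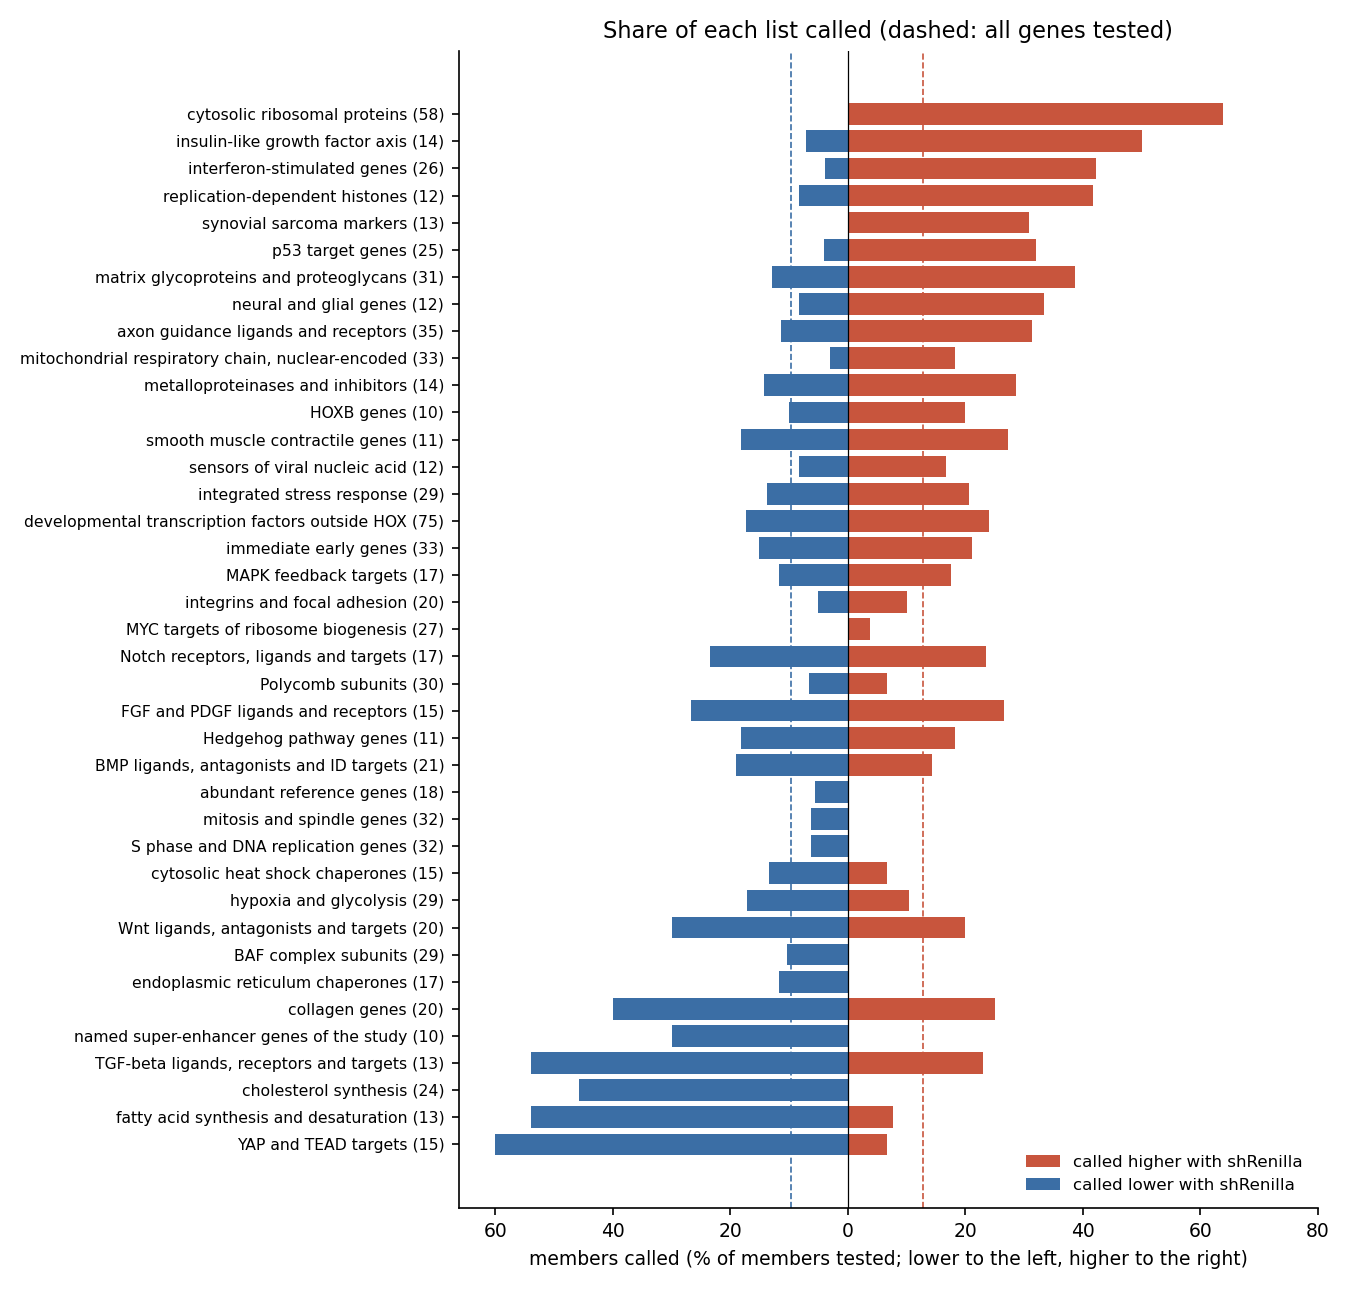
Share of the tested members of each gene list with 10 or more of them (number tested in brackets) called higher with shRenilla (right, red) or lower (left, blue), with dashed lines at the shares over all genes tested (12.8% and 9.62%). Of the lists plotted, ribosomal proteins reach furthest to the right, with 37 of 58 higher, and YAP and TEAD targets furthest to the left, with 9 of 15 lower.

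The study follows genes with super-enhancers in these cells, and 3 of 10 that it names differed between its controls (30%, against 22.4% of all genes). LIF, a cytokine of the interleukin-6 family, read 76.8, 89.4 and 73.4 CPM with DMSO and 17.8, 11.1 and 21.9 CPM with shRenilla (log2 fold change -2.24, SE 0.19, adjusted p = 5.45e-06). TWIST1, a helix-loop-helix factor of mesenchymal cells, read 368, 400.3 and 397 CPM with DMSO and 114, 112 and 99 CPM with shRenilla (log2 -1.84, SE 0.083, adjusted p = 3.85e-08). For both genes the highest shRenilla library lay far under the lowest DMSO library. TCF4, a partner of TWIST1, fell by 0.59, close to the fold threshold, and was not called without DMSO replicate 1 (-0.57) or shRenilla replicate 1 (-0.56). The other 7 were not called: MYC (-0.57), FOXC1 (-0.13), TLE1 (-0.06), DNM3 (0.34), ZIC1 (0.35), ZIC4 (0.52) and TRPS1 (0.58). MYC had an adjusted p = 0.00516 at a fold under 1.5, and was called lower without shRenilla replicate 3 (-0.74) or DMSO replicate 1 (-0.60). It lies on 8q, where the arm's median was -0.31. TRPS1, a GATA-type repressor on the same arm, was called higher without DMSO replicate 1 (0.62), shRenilla replicate 1 (0.60) or shRenilla replicate 2 (0.60).

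Of 13 tested synovial sarcoma markers 4 rose and none fell, or 1 fell without shRenilla replicate 1 (7 rose and 2 fell at any fold by edgeR). CRABP1, which binds retinoic acid and shares 45.9% of its exon bases with another gene, went from 9.46, 10.5 and 8.47 to 46.1, 32.8 and 41.9 CPM (log2 2.08), and FZD10, a Wnt receptor that marks this tumour, from 61.6, 60.9 and 62.1 to 124, 123 and 149 CPM (log2 1.1). MUC1, an epithelial mucin, rose by 0.96. Of 29 tested BAF subunits none rose and 3 fell (6 and 8 at any fold by edgeR). These were BCL11B (-0.78), DPF1 (-0.75) and DPF3 (-1.43), all subunits with lineage-restricted expression. DPF1 was not called without shRenilla replicate 2 (-0.53). Of 30 Polycomb subunits PHF1 (1.66) and PCGF5 (0.69) rose, and PHC3 (-0.87) and CBX8 (-0.76) fell, with PCGF5 not called without shRenilla replicate 2 (0.55). The shares called were 10.3% of the BAF and 13.3% of the Polycomb subunits, under the 22.4% of all genes.

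The HOX clusters, which mark position along the body axis, differed in which members were read. No gene of HOXA or HOXD passed the filter, while 10 of HOXB and 9 of HOXC did. HOXB8 (0.85) and HOXB9 (0.92) rose, and HOXC11 (-0.72) and HOXC12 (-1.08) fell, and HOXB1 was at 0 with shRenilla. Of 75 other developmental transcription factors tested, 18 rose and 13 fell. SOX9, the chondrogenic factor, went from 0.224, 0.344 and 0.289 to 3.16, 4.24 and 3.59 CPM (log2 3.65, SE 0.26, adjusted p = 1.13e-06). Its cartilage target COL2A1 rose by 1.17 and COMP, a cartilage matrix protein, by 1.4, and RUNX2, the bone factor, fell from 40.8, 39.6 and 43.2 to 5.42, 7.93 and 6.26 CPM (log2 -2.66). In the list of bone, cartilage and fat genes that holds these 4, 4 of 7 tested rose and 2 fell. The others called were SPP1, a bone matrix protein, which rose (0.96), and CEBPA, a factor of fat cells, which fell (-0.65), while BGLAP, a bone protein, read 0.51 and was not called. Of 35 axon guidance genes 11 rose and 4 fell. PLXNA2, a semaphorin receptor, rose by 3.45, EFNB2, an ephrin with 36.4% of exon bases shared, by 2.54 and SEMA3B, a semaphorin, by 1.74, and the ephrin receptor EPHB2 fell by 2.11.

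Genes of the extracellular matrix went in both directions. Of 20 tested collagen genes 5 rose and 8 fell. COL16A1, a fibril-associated collagen, went from 7.3, 8.55 and 9.62 to 0.151, 0.0901 and 0.0486 CPM (log2 -6.32), and COL8A1, of a network collagen, fell by 3.88. Of 31 matrix glycoproteins and proteoglycans 12 rose and 4 fell, with a median of 0.48. SPARC, which binds collagen and calcium, read 2.51, 2.58 and 3.32 CPM with DMSO and 25.4, 27.2 and 29.2 CPM with shRenilla. The groups did not overlap (log2 fold change 3.28, SE 0.13, adjusted p = 1.62e-08). MATN2, a matrilin, rose by 4.09, and FBLN5, which assembles elastic fibres, and LOX, which crosslinks collagen, fell by 3.23 and 2.92. MMP2, a gelatinase, rose by 3.23 and TIMP1, an inhibitor of such enzymes, by 1.22. The integrin ITGA8 rose by 3.15 and ITGA5, the fibronectin receptor subunit, fell by 1.45. Among 7 tested cadherins CDH4 (3.19) and CDH3 (1.79) rose and CDH15 (-1.86) and CDH22 (-0.72) fell.

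Lists of genes of other lineages differed in level, and some of the markers below were named after their values were seen. Summed over their list, the smooth muscle genes held 2328 to 2405 CPM with DMSO and 2213 to 2366 CPM with shRenilla, with VIM, which mesenchymal cells express in general, as the most abundant member, and 3 of 11 tested rose and 2 fell. The smooth muscle genes TAGLN and CNN1 rose (65.3% of the 75-base words of TAGLN occur elsewhere), from 4.57, 5.5 and 4.43 to 17, 13.3 and 13.1 CPM and from 0.851, 1.12 and 0.77 to 3.01, 3.69 and 2.91 CPM. MYH11, which defines that lineage, was not called (log2 -0.30), ACTA2 stayed under 0.1 CPM in every library, and MYLK fell. The skeletal muscle list summed to 68.86 to 76.21 CPM with DMSO and 117.4 to 178.2 CPM with shRenilla, and 1 of 4 tested rose. Neural and glial genes summed to 296.8 to 306.6 CPM with DMSO and 315.4 to 322.9 CPM with shRenilla, and of 12 tested 4 rose and 1 fell. L1CAM, an adhesion molecule, rose by 1.53 and SYP, a synaptic vesicle protein, by 0.83, while GFAP was at or near 0. Summed over 14 leukocyte genes, the DMSO libraries held 9.14 to 11 CPM and the shRenilla libraries 10.6 to 16.8 CPM, and PTPRC, which defines leukocytes, was under 0.1 CPM in every library.

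To ask whether the difference followed position in the genome, genes that averaged 5 CPM or more were grouped by chromosome arm (10049 genes, 41 arms, GRCh37). The medians of 3q, 6p and 8q lay furthest from 0. The median of 11p was close to that of 15q (0.16 over 331 genes, 15.1% called higher and 1.5% lower), but 11p had the larger share called higher. On 3q the median log2 fold change was -0.56 over 274 genes, 91.2% of its genes read lower with shRenilla, and 132 (48.2%) were called lower against 8 higher. The quartiles of 3q were -0.75 and -0.36, against -0.25 and 0.25 over all 10049 genes. On 8q the median was -0.31 over 232 genes, with 48 called lower and 11 higher. On 6p it was 0.41 over 200 genes, with 64 (32%) called higher. On 11p it was 0.16 over 182 genes, with 52 (28.6%) called higher. The other arm of each of these chromosomes had a median near 0: 3p at -0.02, 8p at -0.07, 6q at -0.01 and 11q at -0.01. A window of 6q nevertheless lay higher, as given below.

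Several genes named above lie on these arms. TFRC, the transferrin receptor on 3q (chr3:195739382-195809024, GRCh37) and the 1 gene called among 18 abundant reference genes, read 539.7, 523 and 528 CPM with DMSO and 289, 307 and 334 CPM with shRenilla (log2 -0.77). FSTL1, a secreted glycoprotein on 3q, fell by 0.66 and was among the 5 largest losses in CPM, as was PABPC1, the poly(A)-binding protein on 8q (-0.68). MCM2, ECT2, AMOTL2, SKIL, CHRD, PHC3 and COL8A1 also lie on 3q, and COL14A1 and CA2 on 8q. ZIC1 (0.35) and ZIC4 (0.52), which neighbour each other on 3q, read higher and not lower. Of 1130 genes called lower that have a position, 150 (13.3%) were on 3q, which holds 2.7% of the genes tested. Of 1550 called higher, 100 (6.5%) were on 6p, which holds 2.2%. Off 3q, 8q, 6p and 11p, 11146 genes were tested, and 1343 rose and 887 fell (20% called).

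The arms were then divided into windows. Of 243 windows of 10 Mb with at least 15 genes, 21 had a median beyond 0.4 in size, 7 above and 14 below, and all 9 windows of 3q were among them (-0.62 to -0.46). The highest window was 40 to 50 Mb of chromosome 11, with a median of 0.84 over 36 genes, 26 of them called higher. On 6p the windows of 30 to 40 Mb and 40 to 50 Mb had medians of 0.55 and 0.54, and that of 20 to 30 Mb 0.40. The first windows of 6p, 0 to 10 Mb and 10 to 20 Mb, were at 0.077 and 0.11, and that of 50 to 60 Mb was at -0.42, with 6 of 18 genes called lower. On 8q the window of 140 to 150 Mb was at -0.52 and that of 70 to 80 Mb at 0.27. Windows beyond 0.4 also lay on other arms. They include 6q at 70 to 80 Mb (0.45), which holds COL9A1, 15q at 90 to 100 Mb (0.43) and 2q at 220 to 230 Mb (0.51). A further window of 2q, 180 to 190 Mb, was at -0.435. Of the 21 windows, 20 had the same sign in the other 9 libraries, which share no library with the control comparison. Between dBRD9-A and DMSO, within 1 experiment, no window went beyond 0.4 (range -0.15 to 0.09), and between the SS18-SSX1 hairpins and shRenilla 1 did. These values share a baseline with the control comparison and are given side by side.

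In single libraries the arm medians were tight. Relative to the mean of the DMSO libraries, 3q lay at -0.59, -0.50 and -0.56 in the 3 shRenilla libraries, at -0.04, -0.03 and -0.04 in the 3 dBRD9-A libraries, and between -0.61 and -0.54 in the 6 libraries of the SS18-SSX1 hairpins. All 9 libraries with virus lay together and apart from the 6 without. With each gene set against its arm's median, interferon-stimulated genes stood at 0.58, ribosomal proteins at 0.70, cholesterol synthesis at -0.56 and fatty acid synthesis at -0.91, against 0.56, 0.70, -0.57 and -0.84. The medians of YAP and TEAD targets and of TGF-beta genes moved toward 0, as given above, and that of the insulin-like growth factor axis went from 0.60 to 0.49. DNA content was not measured in this series, and its part in the arm medians was not tested.

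**Figure D4:**
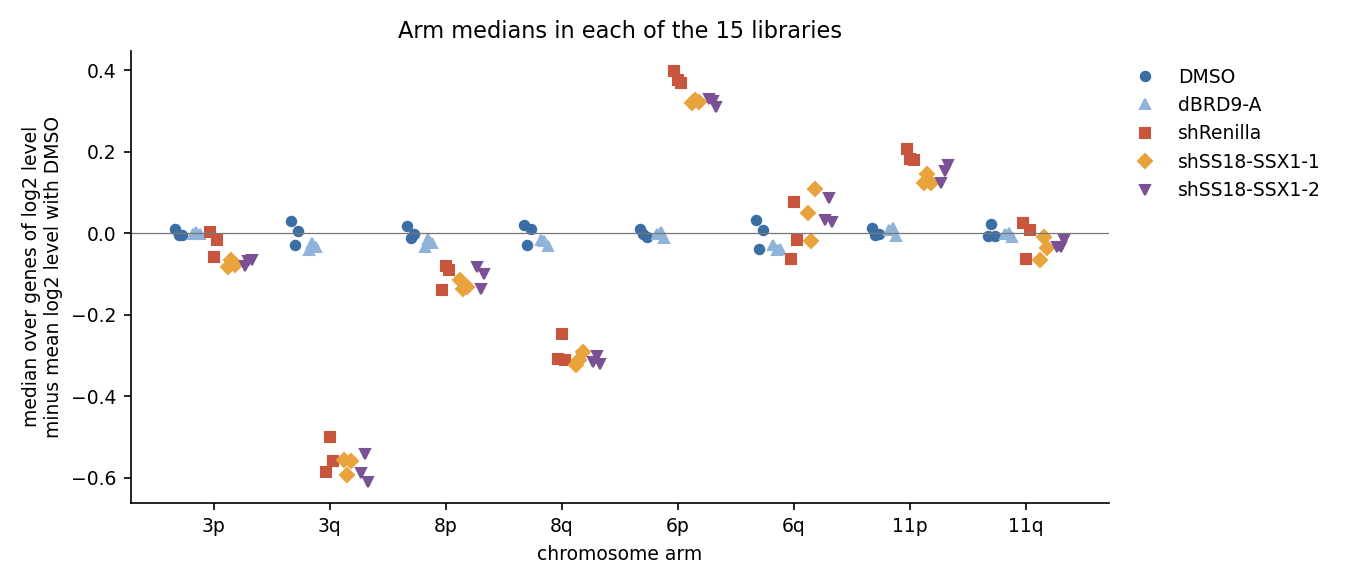
Median over genes of the log2 level minus its mean with DMSO, for 8 chromosome arms in each of the 15 libraries (symbols and colours by group). On 3q the 9 libraries with virus lie between -0.61 and -0.50 and the 6 without virus near 0, whereas on 3p all libraries lie near 0.

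The other 9 libraries hold the same contrast of experiments with different treatments, the SS18-SSX1 hairpins at 96 hr and dBRD9-A at 6 hr. There the mean of the hairpins was compared with dBRD9-A, and 5175 of 14456 genes (35.8%) passed the same rule, with 3137 higher (21.7%) and 2038 lower (14.1%). Of the 1734 genes called higher between the controls and tested in both, 1316 (75.9%) were also higher there, and of 1304 called lower, 851 (65.3%) were lower there. These are 51.9% and 43.4% of the calls of the other 9 libraries. Opposite calls were made for 27 and 54 genes. COL9A1 (5.23 there, log2), RNF182 (-7.49), CYP26A1 (-4.68), TWIST1 (-1.9) and CDKN1A (1.85) are examples, each called in the same direction in both. Interferon-stimulated genes had a median of 2.27 there (23 of the tested members higher), ribosomal proteins 46 members higher, and cholesterol synthesis 5 lower and none higher. Other lists had other values than between the controls. There YAP and TEAD targets had a median of 0.25 (4 higher, 3 lower) and TGF-beta genes one of 0.76 (7 higher, 3 lower), while 29 S phase and 25 mitosis genes were lower and none higher. These contrasts also carry the effects of the hairpins and of dBRD9-A.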

How the data were processed

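RNA was sequenced from HSSYII cells (75-base single-end reads, kit named NEBNext Ultra in the methods and NEBNext Ultra II in the labels). The submitters' processing notes name STAR, featureCounts and hg19, and the authors deposited 1 raw count per transcript (48104 transcripts) and library. Tool versions and the strand setting were not given in the sources used here, and genes that overlap in antisense cannot be told apart. In the deposited table of dBRD9-A replicate 2, 4535 symbols were broken across the count column and its final word was taken for the count. This library is part of the values for the other 9 libraries, the fit of all 15 and the arm medians by library. Per symbol, the row with the highest sum of the 15 libraries was kept (25679 genes). Of 80 symbols turned into dates, 78 were restored from transcript identifiers. The methods name spike-in RNA, but no table used here has spike-in rows.

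The 6 control libraries were fitted in edgeR 4.0.16 under R 4.3.3 (TMM, filterByExpr with a minimum count of 10, robust quasi-likelihood test, Benjamini-Hochberg adjustment over 13668 genes), as were those of the other 9 libraries. A fit of all 15 libraries gave the difference of both contrasts. The members and lists were chosen with earlier results of these data known. Named genes are the 15 largest rises and falls among genes called with 5 CPM or more on average and non-overlapping groups, 5 each at 0 in 1 group, the 5 largest gains and losses in CPM, 10 genes the study names, up to 4 called members per list with 1 CPM or more on average, single members needed to describe a family, and the study's targets. BGLAP, CEBPA, DPF3, IFIT5, ISG15, LGALS3BP, MYH11, SPP1, VIM, genes beside those at 0 and lineage markers at 0 were named after their values were seen. Some members counted in the lists are not reported here by name. Other settings tried were limma-voom (limma 3.58.1), DESeq2 1.42.0, 3 scalings, 2 filters, 2 folds, a block on replicate number, summed transcript rows, a joint fit, and the omission of each library. On simulated data for the control comparison (13668 genes, 200 of them changed), 98% of genes changed 2-fold and 100% of those changed 4-fold were recovered, and 3 unchanged genes were called. The simulation gave each gene 1 dispersion for both groups. It holds neither the wider spread of the shRenilla libraries nor an outlying library, so it does not measure false calls in the data. Gene positions are from an annotation mapped to GRCh37. Promoter and miRNA sequences are from RefSeq (GRCh38.p14). Samples were grouped by their titles, and same-numbered controls did not deviate together (correlations -0.15, -0.24 and 0.03), so numbers were not taken as pairs.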

Additional observations from a re-analysis of the deposited data

Results flagged for a closer look

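4 named genes were called in opposite directions between the controls and in the other 9 libraries, and for each the difference of the 2 contrasts was taken from 1 fit of all 15 libraries in edgeR. The genes were chosen for these opposite calls, so the differences are a description and are given without a p. The other contrast also carries the effects of the SS18-SSX1 hairpins and of dBRD9-A.

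LTBP1, which tethers latent TGF-beta to the matrix, read 3.23, 2.88 and 3.61 CPM with DMSO and 1.02, 0.631 and 0.971 CPM with shRenilla. In the other 9 libraries it was 4.65 higher on the log2 scale with the hairpins, with means of 3.43 CPM with dBRD9-A and 88.2 and 84.8 CPM with the 2 hairpins. The difference of the 2 contrasts was 6.53. MYLK, a myosin kinase of smooth muscle on 3q, read 2.46, 2.92 and 2.36 CPM with DMSO and 0.829, 0.631 and 0.874 CPM with shRenilla (log2 -1.73), and its contrast in the other 9 libraries was 5.1, a difference of 6.83. Both genes were low in both controls and higher with both hairpins than with dBRD9-A.

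CDON, a Hedgehog co-receptor, read 26.1, 24.9 and 27.7 CPM with DMSO and 11.9, 19 and 18.2 CPM with shRenilla (log2 -0.69, or -0.50 and not called without shRenilla replicate 1). Its contrast in the other 9 libraries was 0.84, a difference of 1.54. PDGFB, a PDGF ligand, read 1.3, 1.59 and 1.01 CPM with DMSO and 0.603, 1.04 and 0.534 CPM with shRenilla, and its control groups overlap (log2 -0.85). Its contrast in the other 9 libraries was 0.65, a difference of 1.51. Its call between the controls was lost without DMSO replicate 1 (adjusted p = 0.0811), DMSO replicate 2 (0.148), shRenilla replicate 1 (0.0754) or shRenilla replicate 3 (0.121), all by edgeR, and under DESeq2 (0.0718).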

How the results depend on the processing

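Under the 17 alternatives that keep the fold of 1.5, between 2673 (only genes averaging 1 CPM or more) and 3419 (no filter on low counts) genes were called between the controls, against 3060. Leaving out each library in turn gave 2965 to 3178, and without shRenilla replicate 1 2688 of the 3060 genes kept their call. DESeq2 called 2916 and limma-voom 3060. Upper quartile scaling gave 3087, with 1952 higher and 1135 lower. The call rule changes the size of every count. Between the controls 6428 genes passed at any fold and 1443 at a fold above 2, in the other 9 libraries 11199 and 2798, and over all gene lists together 562 and 170 members, against 334.

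The same replicate numbers did not pair the controls. With the replicate number as a block 3072 genes were called (1732 higher, 1340 lower), and 3009 of the 3060 genes kept their call. Of shRenilla libraries 1 and 2, each correlated best with DMSO libraries of another number.

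For the chromosome arms, an analysis added after seeing the data, upper quartile scaling moved the medians to -0.51 on 3q, -0.26 on 8q and 0.47 on 6p. On 6p the median was 0.43 at a minimum of 1 CPM and 0.38 at 20 CPM. Leaving out each library in turn gave -0.60 to -0.54 on 3q, -0.34 to -0.28 on 8q, 0.39 to 0.42 on 6p and 0.81 to 0.89 for the 11p window of 40 to 50 Mb. With windows of 5 Mb all 7 on 3q lay under -0.4, and with 20 Mb all 5.

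Leaving out each library in turn kept the call of 187 to 192 of the 194 called named genes, and 329 to 348 list members were called. The 1 value that changed sign was that of BRD9, not called in any setting, at 0.056 without shRenilla replicate 2 and down to -0.23 without shRenilla replicate 1, against -0.08. Over all alternatives the named genes gave 3748 values with the same call, 105 that lost it (56 of them at a fold above 2) and 16 that gained it. TMM scaling removes any shift that all genes share. With 3 libraries a group, a p that misses the threshold does not show that levels were equal.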

Other observations

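Of 15 tested cytosolic heat shock chaperones 1 rose and 2 fell, or 4 fell without shRenilla replicate 1 or DMSO replicate 2. HSPA1B, an inducible HSP70, read 0.807, 0.559 and 0.77 CPM with DMSO and 12.5, 7.3 and 6.21 CPM with shRenilla (log2 3.62), and 73.3% of its 75-base words occur in other transcripts. HSPA4L and CHORDC1, chaperones of the same list, fell by 0.69 and 0.73. SNORD17, a small nucleolar RNA without a poly(A) tail, fell by 1.86. The desmosomal gene DSP, on 6p, fell by 0.85, while its arm's median was 0.41 and that of the arm's first window, 0 to 10 Mb, was 0.077. TNNT1, a troponin of slow muscle, rose by 1.14, and CLDN5, a tight junction gene of endothelium, went from 1.34, 1.5 and 1.49 to 6.7, 3.83 and 5.58 CPM, while CDH5, KDR and VWF were at 0 in all 6 libraries.

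3 further motifs were searched on both strands in the same 300 bases. The cell cycle homology region TTTGAA stood in 18 of 27 mitosis genes with a promoter entry (66.7%) against 15.43% of all promoters. The E-box CACGTG stood in 8 of 21 genes of ribosome biogenesis (38.1%) against 7.43%, and the cAMP response element TGACGTCA in 3 of 26 immediate early genes (11.5%) against 1.98%. Few members of the first 2 lists were called, so these counts describe promoters and not a difference between the controls.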
